A study of Mus musculus with 10 samples.

Results

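The collagen chains are the genes whose symbol has the form Col, a type number, a and a chain number. All 44 such genes on the array were taken, each with 1 probe set, of 24704 named genes in all. The rule for a member is the symbol and uses no measured value. They were sorted by the assembly their protein forms into 11 fibrillar chains, 9 network chains and 24 others, the others being beaded filament and anchoring, fibril-associated, multiplexin, transmembrane and 2 unclassed chains.

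Signals came from 10 Affymetrix arrays with RNA of liver sinusoidal endothelial cells, the cells that line the capillary-like vessels of the liver. Female C57BL/6N mice, 10 weeks old at the start, received for 10 weeks either a CDAA diet, with 31% of calories as fat and 1% cholesterol, or a control diet, called Std. CDAA commonly stands for choline-deficient, amino acid-defined, a feed used to bring on fatty liver with scarring. Each array held cells pooled from 3 mice, freed with collagenase, separated on a Nycodenz gradient and bound to beads against CD146, with 5 pools for each diet (CDAA 1 to 5, Std 1 to 5). A label for the duration reads 10 days, whereas titles, descriptions and the growth protocol give 10 weeks, which is used here. The design text speaks of mice that lack Gata4 in these cells. No sample is labelled so, all groups here are C57BL/6N mice told apart by diet alone, and Gata4 mutants are not analysed here.

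A collagen is a trimer of chains that wind into a triple helix, made of 3 copies of 1 chain or of a mix. Fibrillar collagens, types I, III and V among them, build the banded fibres that accumulate in a scarred liver, where stellate cells and fibroblasts are their main makers. Network collagens such as type IV form the sheets of basement membranes, which endothelial cells lay down themselves. Beaded filament, fibril-associated and multiplexin collagens link fibres to one another, to basement membranes and to cells, and transmembrane collagens sit in the cell surface.

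The values were log2 signals, so a difference of 1 is a 2-fold difference. All arrays had a median of 3.89, and no detection call was used here, so a signal at or below it may be background. Of the 44 chains, 28 had a mean above that median in at least 1 diet. Changes are CDAA minus Std on that scale, given with its limma standard error (SE), and a chain "rose" or "fell" where limma's Benjamini-Hochberg adjusted p over all genes was under 0.05. In bulk RNA of this kind, fewer cells of a type and less RNA per cell cannot be told apart. Probe sets differ in how strongly they bind, so levels are compared between arrays for 1 chain and not between chains.

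The defining markers were checked against the label first. The 12 pan-endothelial markers had list means of 11.37 to 11.52 in the Std arrays and 10.06 to 11.14 in the CDAA arrays, and 9 of the 12 fell. The 12 markers of sinusoidal endothelium lay at 11.70 to 11.89 with Std and 10.23 to 11.27 with CDAA, and 10 fell. Cells with endothelial markers were thus present on all arrays, at a lower marker signal with CDAA. Signals of other liver cells moved as well. All 7 measured cholangiocyte markers rose, as did 6 of 7 recruited macrophage markers. Of 7 Kupffer cell markers 4 fell, with list means of 7.90 to 8.77 with CDAA and 8.44 to 9.61 with Std. Hepatocyte markers went both ways, with 2 of 7 higher and 2 lower past the threshold. Beside all these counts, 7.49% of all genes rose and 9.13% fell. The stellate cell and fibroblast markers, which hold no collagen chain, are given beside the fibrillar chains.

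With the CDAA diet 10 collagen chains rose and 4 fell, and 30 did not pass the threshold. That is 31.8% of the chains, against 16.6% of all genes. In the rising direction it is 22.7% of the chains against 7.49% of all genes, and in the falling direction 9.09% against 9.13%, so falls were about as frequent among the chains as on the whole array. The rises were led by Col1a1, Col3a1 and Col1a2, the chains of the main scar collagens, and 5 of the 10 exceeded 1 on the log2 scale. In 7 of the 10 chains that rose all CDAA arrays lay above all Std arrays (6.16% of all genes). In 3 of the 4 that fell all lay below (7.73% of all genes). These percentages count all genes, called or not, so they are no measure for chains picked by their call. On the whole array 1521 genes lay fully above, beside 1851 that rose, and 1910 fully below, beside 2255 that fell. Of all 44 chains 11 were without overlap in either direction, among them Col12a1, which did not pass, against 13.9% of all genes. The median change over the 44 chains was 0.06, close to the median of all genes at -0.02, since most chains moved little. With both arrays that stood highest in most of the risen chains (CDAA 1 and CDAA 3) left out, 8 chains rose and 3 fell.

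**Figure D1:**
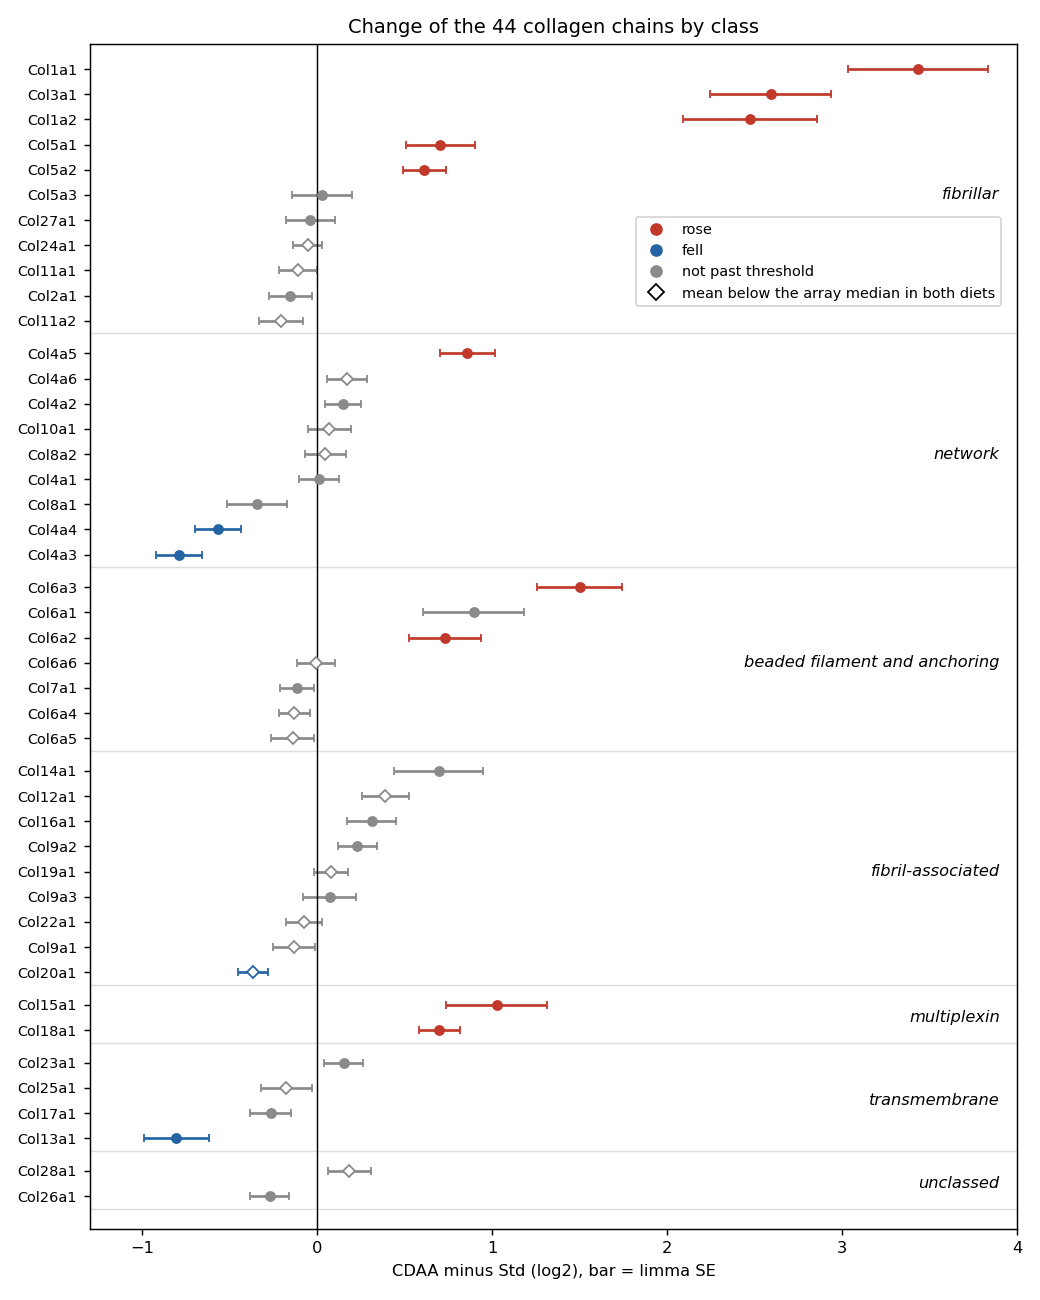
Change of each of the 44 collagen chains, CDAA minus Std on the log2 scale, with limma SE bars, grouped by class. Red points rose, blue points fell, grey points did not pass the threshold, and open diamonds had means below the array median in both diets. Col1a1, Col3a1 and Col1a2 stand apart on the right at 3.43, 2.59 and 2.47.

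Promoter sequence was looked up for the chains, and stretches of it are shown for Col1a2, Col3a1 and Col18a1, which rose without overlap between diets and stand for type I, type III and basement membrane collagen. They come from RefSeq (build GRCm38.p6) and run 5′ to 3′ up to the base before the annotated start. Capitals mark matches to any of 4 short motifs on either strand. The CCAAT box reads ATTGG when it lies on the other strand. The GC box is GGGCGG, seen as CCGCCC from the other side. The TATA motif was searched as TATAAA and in reverse as TTTATA. The last, CAGAC, with GTCTG as its reverse, is a short motif bound by Smad proteins. The first 250 bases belong to Col1a2, chr6:4505368-4505617 on the + strand, and the other stretches, of 150 bases, to Col3a1, chr1:45311388-45311537 on the + strand, and Col18a1, chr10:77166531-77166680 on the - strand.
Col1a2: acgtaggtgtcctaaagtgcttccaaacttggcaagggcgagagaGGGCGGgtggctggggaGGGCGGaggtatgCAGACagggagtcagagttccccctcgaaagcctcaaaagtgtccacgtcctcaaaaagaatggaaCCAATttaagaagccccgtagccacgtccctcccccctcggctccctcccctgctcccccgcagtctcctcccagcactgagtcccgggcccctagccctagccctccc
Col3a1: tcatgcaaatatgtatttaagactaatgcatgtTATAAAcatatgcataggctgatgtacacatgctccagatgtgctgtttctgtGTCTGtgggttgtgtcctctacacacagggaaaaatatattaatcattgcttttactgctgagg
Col18a1: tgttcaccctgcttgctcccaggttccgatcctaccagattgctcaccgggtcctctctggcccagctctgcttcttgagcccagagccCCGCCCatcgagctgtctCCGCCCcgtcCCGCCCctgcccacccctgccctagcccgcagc

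The 3 stretches, which are not of equal length, held different sets of these motifs. Col1a2 held 2 GC boxes, 1 CAGAC and 1 CCAAT, the last starting 109 bases before the annotated start. Col3a1 held 1 TATAAA, 117 bases before the start, and 1 CAGAC on the other strand, and Col18a1 held 3 GC boxes on the other strand and none of the other motifs. None of the 4 motifs shares letters with another in these stretches. Part of the contrast comes from the shorter stretches. Over the full 250 bases before the start Col3a1 held 2 CAGAC, and the same Col18a1 window held 1 CCAAT beside its 3 GC boxes. A second window of Col18a1 held 0 GC boxes and 1 CAGAC.

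In all, 35 of the 44 chains had 38 promoter windows in the RefSeq table, and motifs were counted on both strands over the 250 bases before the start. The chains without an entry were Col12a1, Col14a1, Col1a1, Col22a1, Col26a1, Col2a1, Col4a3, Col5a2 and Col9a3. The GC box was in 22 of the 38 windows (57.9%) and in 32.7% of all 32851 windows. The share of G and C bases ran from 35.2% (Col3a1) to 76.4% (Col5a1) in the collagen windows. Over all windows its median was 52.4%. The part of base content in the GC box share was not tested. CCAAT was in 13 (34.2%, against 33.8% of all), TATAAA in 5 (13.2%, against 12.4%) and CAGAC in 17 (44.7%, against 42.2%). Of the 10 windows of chains that rose, 6 held a GC box, 6 CAGAC, 3 CCAAT and 1 TATAAA. Of the 3 windows of chains that fell, 0 held a GC box, 1 CAGAC, 0 CCAAT and 1 TATAAA. A link between a motif and the direction of change was not tested. Among the risen chains Col6a2 and Col18a1 had more than 1 window each, and Col1a1 and Col5a2 had none. A match is a run of letters and was not shown to be a binding site.

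The fibrillar chains held the largest rises. Of 11, 5 rose in limma (7.49% of all genes) and 0 fell (9.13% of all genes), also 0 at an unadjusted p under 0.05. The median change of the class was 0.03. Col1a1 and Col1a2 encode the chains of type I collagen, the bulk protein of fibrous scars, Col3a1 encodes the only chain of type III, and Col5a1 and Col5a2 encode chains of type V, which starts fibrils and limits their width.

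Col1a1 read 9.78, 8.49, 10.17, 7.55 and 8.49 in CDAA 1 to 5, and 5.47, 5.44, 5.75, 5.43 and 5.22 in Std 1 to 5. Every CDAA array thus lay well above every Std array, and the CDAA arrays spread over a far wider range (SD 1.06, n = 5) than the Std arrays (SD 0.19, n = 5). The change was 3.43 (SE 0.40, adjusted p = 0.000205), a 10.8-fold higher mean signal. For Col1a2 the CDAA arrays gave 8.73, 7.37, 8.95, 6.47 and 7.55, and the Std arrays 5.45, 5.11, 5.43, 5.31 and 5.41. Again there was no overlap and the same order held among the CDAA arrays at the top and the bottom, with CDAA 3 highest and CDAA 4 lowest. The Col1a2 change was 2.47 (SE 0.38, adjusted p = 0.00118), or 5.54-fold.

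Col3a1 was at 9.40, 8.19, 9.79, 7.59 and 8.63 with CDAA and at 5.83, 6.25, 6.35, 5.86 and 6.35 with Std. It rose by 2.59 (SE 0.35, adjusted p = 0.000493), or 6.03-fold, without overlap. With CDAA 1 and CDAA 3 left out, Col1a1, Col3a1 and Col1a2 still rose, by 2.72, 2.01 and 1.79 (adjusted p = 0.000124, 0.000558 and 0.000825).

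The type V chains rose by less. Signals of Col5a2 were 6.74, 6.64, 6.58, 6.40 and 6.75 with CDAA and 5.92, 5.83, 6.39, 5.86 and 6.05 with Std. The lowest CDAA array, CDAA 4, was just above the highest Std array, Std 3, and the change was 0.61 (SE 0.12, adjusted p = 0.00518). Col5a1 gave 6.13, 5.45, 6.30, 5.30 and 5.73 with CDAA and 5.00, 5.31, 4.71, 5.04 and 5.35 with Std. CDAA 4 fell within the Std range here, and the change was 0.70 (SE 0.20, adjusted p = 0.0289). The Col5a1 call was lost when CDAA 1, CDAA 3, Std 1, Std 3 or Std 4 was left out (adjusted p = 0.0589 to 0.0729), and with both CDAA 1 and CDAA 3 left out its change was 0.41 (adjusted p = 0.143).

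The 6 fibrillar chains that did not pass included Col5a3, the third type V chain, with a change of 0.03 (SE 0.17). Col27a1, a chain of cartilage and other tissues, gave -0.04 (SE 0.14), and Col2a1, the cartilage fibre chain, gave -0.15 (SE 0.12). Col11a1, Col11a2 and Col24a1 had means below the array median in both diets, so these signals do not show whether the chains were expressed.

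**Figure D2:**
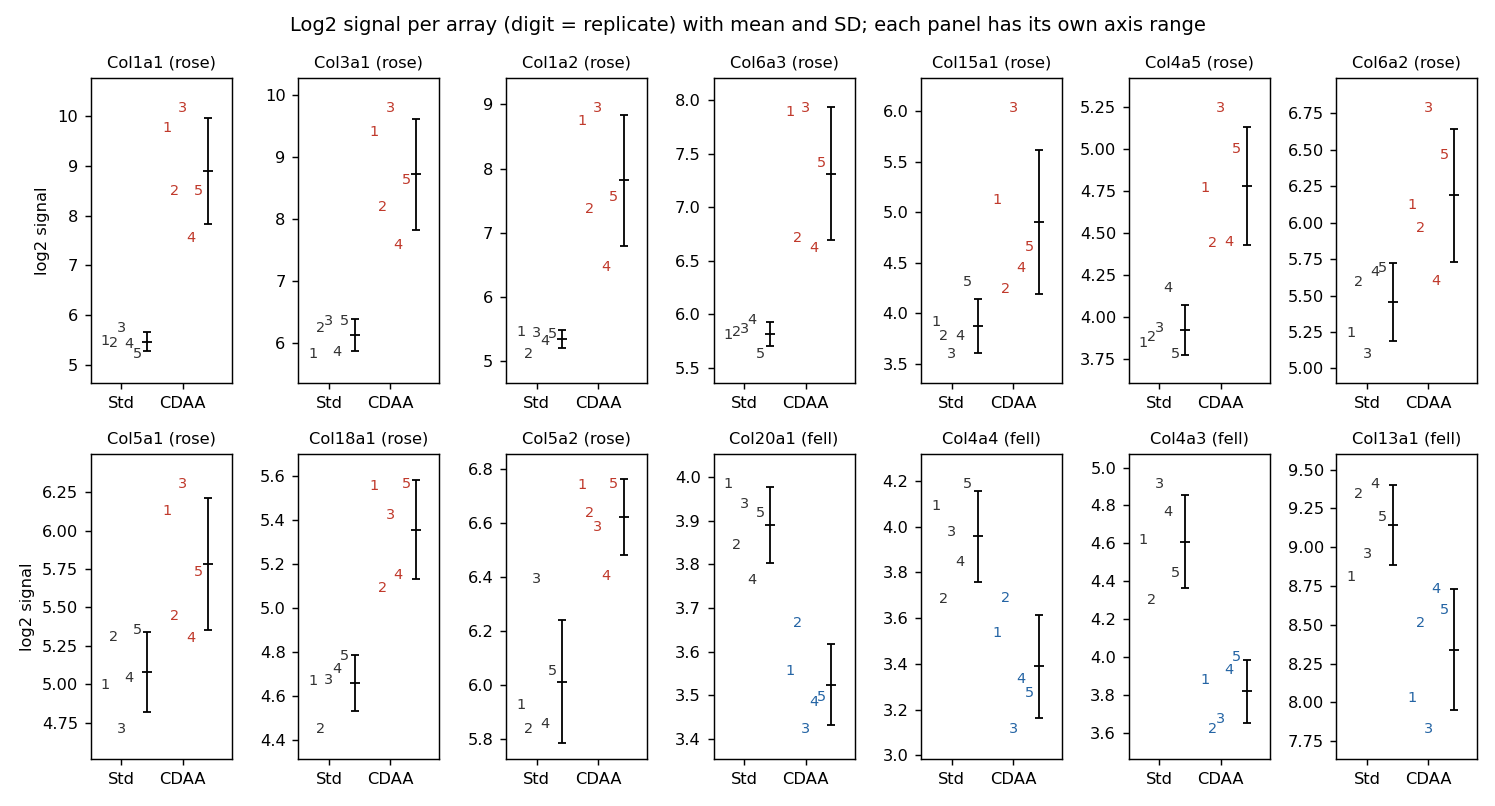
Log2 signal of the 14 chains past the threshold on every array (each digit is a replicate number), with the mean and SD of 5 arrays per diet as black bars; each panel has its own axis range. For Col1a1 the CDAA arrays span 7.55 to 10.17 and the Std arrays 5.22 to 5.75, and CDAA 3 is the highest CDAA array in 8 of the 10 risen chains.

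The CDAA arrays kept much the same order in the risen chains. CDAA 3 was highest in 8 of the 10 and CDAA 5 in 2, whereas CDAA 4 was lowest in 7 and CDAA 2 in 3. CDAA 1 and CDAA 3 were jointly the 2 highest in 6 of the 10. The median height above the Std mean over these 10 chains was 1.72 in CDAA 3, 1.15 in CDAA 1, 1.04 in CDAA 5, 0.57 in CDAA 2 and 0.55 in CDAA 4.

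Part of the markers of stellate cells and fibroblasts, the liver's main makers of fibrillar collagen, moved with these chains. Of 20 listed, none of them a collagen, 9 rose (7.49% of all genes), 2 fell (9.13% of all genes) and 9 did not pass. All 20 had a mean above the array median in at least 1 diet. The list mean was 7.01 to 7.95 over the CDAA arrays and 6.52 to 7.00 over the Std arrays, highest in CDAA 3 and CDAA 1 and lowest among the CDAA arrays in CDAA 4. Dpt, encoding dermatopontin, a collagen-binding matrix protein, rose by 3.09 (SE 0.41), and its CDAA arrays read 8.84, 7.55, 8.68, 6.29 and 8.54 against 4.58 to 5.32 with Std. Lum, the fibril-binding proteoglycan lumican, rose by 2.50 (SE 0.39), Rgs5, a pericyte gene, by 2.45 (SE 0.20) and Cygb, cytoglobin of stellate cells, by 1.62 (SE 0.28). Acta2, the smooth muscle actin of activated stellate cells, differed by 0.50 (SE 0.16, adjusted p = 0.0535), and Lrat, which stores vitamin A in quiescent ones, by 0.53 (SE 0.41, adjusted p = 0.448). Acta2 passed without CDAA 3 (adjusted p = 0.0495) or Std 3 (adjusted p = 0.00641), with array weights, a variance trend or either filter on dim genes (adjusted p = 0.0134 to 0.0453), and not with both CDAA 1 and CDAA 3 left out (0.52, adjusted p = 0.118). Lrat was at 0.18 without both of these arrays. The others that did not pass were Hgf (0.57, SE 0.21), Dcn (0.55, SE 0.32), Des (0.22, SE 0.15) and Hand2 (0.19, SE 0.21). Lower estimates that did not pass came from Colec11 (-0.03, SE 0.29), Reln (-0.09, SE 0.38) and Ngfr (-0.26, SE 0.13). The 2 that fell, Ecm1 (-1.16, SE 0.11) and Bgn (-0.48, SE 0.10), encode secreted matrix proteins.

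The other lists of collagen-making or vessel wall cells moved less. Of 11 portal fibroblast markers 2 rose, Cd34 (1.37, SE 0.14) and Fbln2 (0.80, SE 0.19), and 0 fell (1 was lower at an unadjusted p under 0.05). Of 8 vascular smooth muscle markers 1 rose, Tagln (0.80, SE 0.16), and 1 fell, Smtn (-0.73, SE 0.11). Tagln also belongs to the stellate cell and fibroblast list. Of 6 mesothelial markers 1 rose and 0 fell (0 lower unadjusted). On the whole array 7.49% of genes rose and 9.13% fell. The mesothelial marker that rose was Krt19 (2.25, SE 0.22), a keratin that is also in the cholangiocyte list. The means of these 3 lists were 5.41 to 5.70, 5.74 to 6.17 and 4.95 to 5.43 with CDAA, and 5.03 to 5.54, 5.60 to 6.18 and 4.55 to 5.10 with Std. The part of any of these cells in the collagen signals was not tested, since the arrays hold the pooled RNA of all cells in an isolate. A fit with the stellate cell and fibroblast mean as a covariate called 126 genes on the whole array and no chain, with 7 chains at an unadjusted p under 0.05. In that fit Col1a1 was at 1.93 (adjusted p = 0.135) and Col3a1 at 1.16 (adjusted p = 0.265). When the pan-endothelial list mean took that place, 228 genes were called, among them Col1a1 at 1.69 (adjusted p = 0.0129) and Col3a1 at 1.05 (adjusted p = 0.0288) and no other chain. The arrays of the diets did not overlap in either marker mean, so such a covariate also takes up part of the diet difference.

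**Figure D3:**
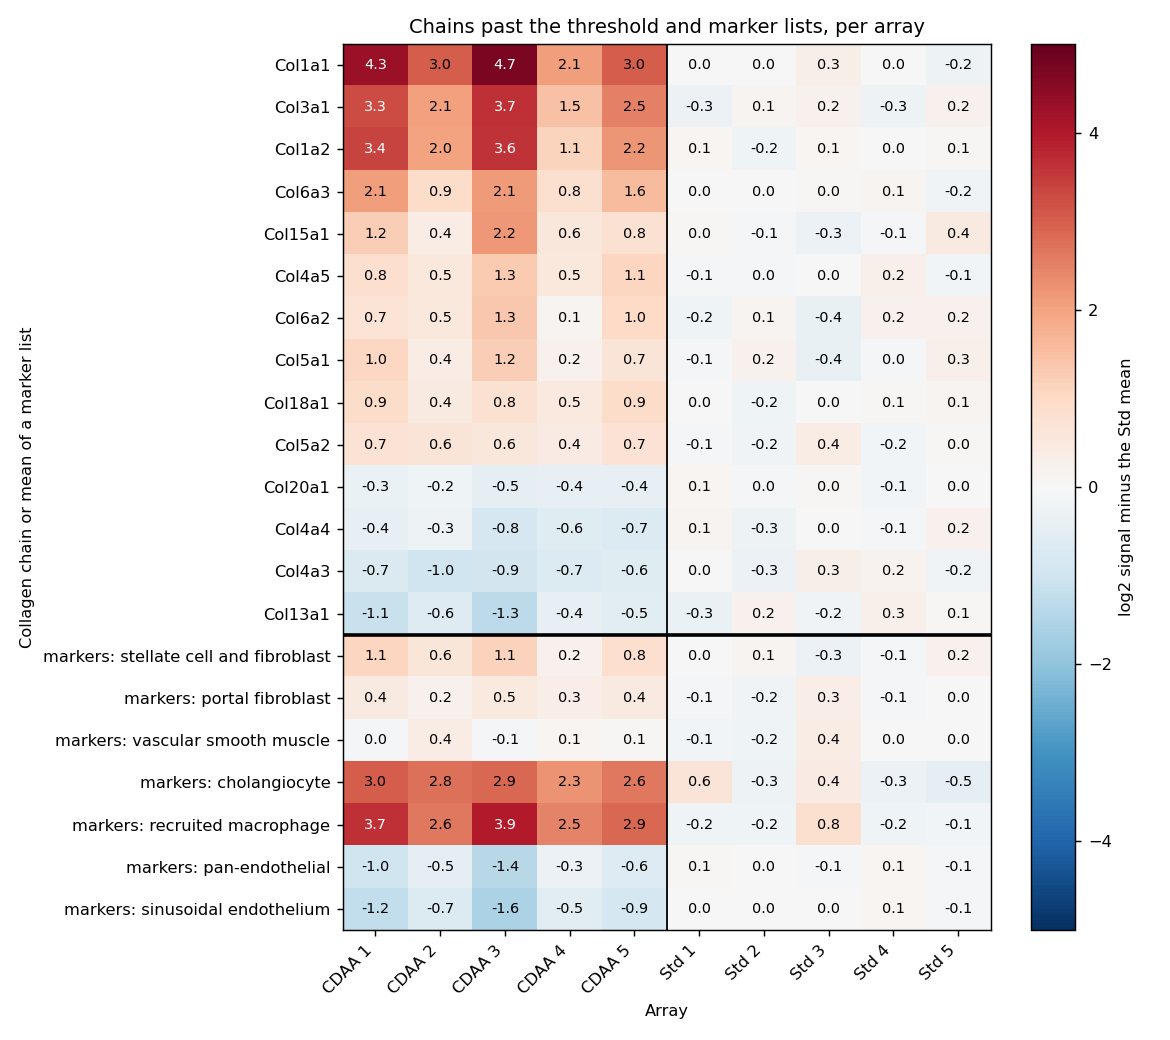
Log2 signal of each array minus the Std mean, for the 14 chains past the threshold (above the black line) and for the means of 7 marker lists (below it); red is higher and blue lower, and the numbers give the difference. The columns of CDAA 1 and CDAA 3 are the darkest for Col1a1, Col3a1 and Col1a2, and the pan-endothelial and sinusoidal rows are lowest in the same columns.

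Network chains gave a different picture, with the main vessel chains near their Std level. Of 9, 1 rose and 2 fell (7.49% and 9.13% of all genes), with a median change of 0.05. Col4a1 and Col4a2 encode the chains of the common type IV collagen of vessel basement membranes. Col4a1 read 9.48, 9.46, 9.04, 9.65 and 9.27 with CDAA and 9.38, 9.44, 9.23, 9.43 and 9.37 with Std. The ranges overlapped fully, and the change was 0.01 with a 95% interval of -0.24 to 0.26 (adjusted p = 0.971). Its sign turned when CDAA 1, CDAA 2, CDAA 4 or Std 3 was left out. Col4a2 read 9.18, 9.22, 8.89, 9.41 and 9.11 with CDAA and 9.03, 8.98, 8.97, 9.12 and 8.96 with Std, a change of 0.15 with an interval of -0.08 to 0.37 (adjusted p = 0.399). For both, CDAA 3 was the lowest CDAA array and CDAA 4 the highest, the reverse of Col1a1.

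The minor type IV chains, which build the basement membranes of kidney, lung and other epithelia, moved in both directions. Col4a5 was the network chain that rose, with 4.76, 4.44, 5.24, 4.44 and 5.00 in the CDAA arrays and 3.85, 3.88, 3.93, 4.17 and 3.78 in the Std arrays. There was no overlap, the change was 0.86 (SE 0.16, adjusted p = 0.00312), and the Std values lay about the array median. Col4a3 fell by 0.79 (SE 0.13, adjusted p = 0.00176), from 4.62, 4.30, 4.92, 4.77 and 4.44 with Std to 3.88, 3.62, 3.67, 3.93 and 4.00 with CDAA. Col4a4 fell by 0.57 (SE 0.13, adjusted p = 0.0111), from 4.09, 3.69, 3.98, 3.84 and 4.19 to 3.54, 3.69, 3.11, 3.33 and 3.27. Both ended with CDAA means below the array median, where a signal may be background, and the Col4a4 ranges touched at Std 2 and CDAA 2. Col8a1, a chain of the type VIII network under vessel endothelium, gave -0.34 (SE 0.17, adjusted p = 0.219). The remaining 3, Col4a6, Col8a2 and Col10a1, had means below the array median in both diets.

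Some network and fibrillar chains lie next to each other on a chromosome, in the order of RefSeq's gene table, which is separate from its promoter table and also holds Col5a2 and Col4a3. Col3a1 and Col5a2 are neighbours and both rose, by 2.59 and 0.61. Col4a4 and Col4a3 are neighbours and both fell. Col4a1 and Col4a2 start 21 bases apart on opposite strands, with promoter windows that overlap by 78 bases, and neither passed the threshold. Col4a5 and Col4a6 likewise start on opposite strands with 1343 bases between them, and of these only Col4a5 passed.

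The beaded filament and anchoring class had 2 rises among 7 chains (7.49% of all genes rose). Type VI collagen is made of Col6a1, Col6a2 and 1 larger chain, most often Col6a3, and anchors cells to the surrounding fibres. Col6a3 read 7.89, 6.71, 7.93, 6.62 and 7.42 with CDAA and 5.81, 5.83, 5.86, 5.94 and 5.63 with Std. It rose by 1.50 (SE 0.24, adjusted p = 0.00151), or 2.83-fold, without overlap. Col6a2 was at 6.12, 5.97, 6.79, 5.60 and 6.46 with CDAA and at 5.24, 5.59, 5.10, 5.66 and 5.69 with Std. CDAA 4 lay within the Std range, and the rise was 0.73 (SE 0.21, adjusted p = 0.0293). The Col6a2 call was lost without CDAA 1, CDAA 3, CDAA 5, Std 1 or Std 3 (adjusted p = 0.0536 to 0.0748), and without both CDAA 1 and CDAA 3 the change was 0.55 (adjusted p = 0.121).

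Col6a1, the partner present in every type VI trimer, did not pass, with 5.75 to 7.37 in the CDAA arrays and 5.39 to 5.75 in the Std arrays. Its change of 0.89 (SE 0.29, adjusted p = 0.0532) was larger than that of Col6a2, with a wider spread among the CDAA arrays (SD 0.76, n = 5). Leaving out CDAA 4 or CDAA 5 brought Col6a1 past the threshold (1.08 and 1.03, adjusted p = 0.0185 and 0.0373), as did either filter on dim genes (adjusted p = 0.0438 and 0.0358). With both CDAA 1 and CDAA 3 left out its change was only 0.35 (adjusted p = 0.0999). The alternative chains Col6a4, Col6a5 and Col6a6 were below the array median, and Col7a1, the anchoring fibril chain of skin, was close to it and gave -0.11 (SE 0.10).

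Of the 9 fibril-associated chains, which decorate the surface of fibres, 0 rose and 1 fell in limma (7.49% and 9.13% of all genes). At an unadjusted p under 0.05, 3 were higher and 1 was lower. Col14a1, which binds type I fibres, had the largest estimate. It read 7.43, 6.61, 7.76, 6.24 and 6.79 with CDAA and 6.49, 6.46, 5.96, 6.05 and 6.39 with Std. CDAA 4 lay among the Std arrays, and the change was 0.69 (SE 0.25, adjusted p = 0.0850). Without CDAA 4 it was 0.88 (adjusted p = 0.0200), and without both CDAA 1 and CDAA 3 it was 0.27 (adjusted p = 0.358). Col16a1 gave 0.31 (SE 0.14, adjusted p = 0.162) and passed only without Std 4 among the single arrays left out (0.42, adjusted p = 0.0480). Col9a2 and Col9a3, cartilage chains, gave 0.23 (SE 0.11) and 0.07 (SE 0.15). Col12a1, a partner of type I fibres, lay below the array median with 0.39 (SE 0.13, adjusted p = 0.0658), although its arrays did not overlap, and 0.21 without both CDAA 1 and CDAA 3. Col9a1, Col19a1 and Col22a1 were also below the median. Col20a1 fell, from 3.98, 3.85, 3.94, 3.76 and 3.92 with Std to 3.56, 3.67, 3.42, 3.48 and 3.50 with CDAA (-0.37, SE 0.09, adjusted p = 0.0123), all at or near the level where signal and background cannot be told apart. Its adjusted p was 0.0517 with both CDAA 1 and CDAA 3 left out.

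Both multiplexins rose. These are basement membrane collagens whose ends are cut off as soluble fragments, among them endostatin from Col18a1. Col18a1 was at 5.56, 5.09, 5.42, 5.15 and 5.57 with CDAA and at 4.67, 4.45, 4.67, 4.72 and 4.78 with Std. The groups did not overlap, and the change was 0.70 (SE 0.12, adjusted p = 0.00213). The Col18a1 rise was nearly the same with both CDAA 1 and CDAA 3 left out (0.61, adjusted p = 0.0156). Col15a1 gave 5.12, 4.24, 6.03, 4.45 and 4.66 with CDAA and 3.92, 3.77, 3.60, 3.77 and 4.31 with Std. CDAA 3 stood highest, CDAA 2 fell below Std 5, and the change was 1.02 (SE 0.29, adjusted p = 0.0283). The Col15a1 call was lost without CDAA 1, Std 1, Std 2, Std 3 or Std 4 (adjusted p = 0.0563 to 0.0671), and without both CDAA 1 and CDAA 3 the change was 0.57 and only just passed (adjusted p = 0.04996). Together with Col6a2 this took the number of risen chains outside the fibrillar and network classes from 4 to 2 without CDAA 1, without Std 1 or without Std 3.

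Among the 4 transmembrane chains 0 rose in limma (7.49% of all genes), also 0 at an unadjusted p, and 1 fell (9.13% of all genes). Col13a1, a membrane-spanning collagen of cell contacts, read 8.81, 9.34, 8.96, 9.41 and 9.20 with Std and 8.03, 8.51, 7.83, 8.73 and 8.60 with CDAA. The 5 CDAA arrays lay below all Std arrays, and it fell by 0.80 (SE 0.18, adjusted p = 0.0107), to a mean that was 1.75-fold lower. Without both CDAA 1 and CDAA 3 the fall was smaller, at -0.53 (adjusted p = 0.0472). CDAA 3 and CDAA 1 were the lowest, as they were for the pan-endothelial markers. That list fell from a Std mean of 11.44 to a CDAA mean of 10.69. The part of the endothelial marker signal in the fall of Col13a1 was not tested. With that marker mean as a covariate the Col13a1 change was -0.16 (adjusted p = 0.803). Col23a1 and Col17a1 gave 0.15 (SE 0.11) and -0.27 (SE 0.12), and neither passed. Col25a1 and the unclassed Col28a1 lay below the array median, and the unclassed Col26a1 gave -0.27 (SE 0.11, adjusted p = 0.131).

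Of the 30 chains that did not pass, 15 lay below the array median in both diets, with changes of -0.21 to 0.39. Low signal and no change cannot be told apart for these 15. The other 15 lay above it in at least 1 diet.

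The changes of chains that can join in 1 trimer, and of some chains of different types, were set against each other in pairs. The test took the log2 difference of both chains on each array and compared it between diets by an exact two-sided permutation test over all 252 arrangements, with adjustment over 14 pairs. The smallest p it can give is 0.00794. Of 14 pairs 9 differed, 4 of 8 within a trimer and 5 of 6 between types. The 5 between types all held Col1a1 or Col3a1, the chains with the largest rises, so they largely restate those rises. These counts therefore do not show that types differ more often than chains of 1 trimer. Each probe set has its own response, so unequal changes of signal need not be unequal changes of transcript.

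In the exact permutation test Col1a1 rose by 0.96 more than Col1a2 (SE 0.11, p = 0.00794, adjusted p = 0.0139). The log2 difference between these chains was 0.94 to 1.22 on the CDAA arrays and -0.19 to 0.33 on the Std arrays. Its spread was narrow in both diets although each chain alone ranged widely over the CDAA arrays. Col1a1 likewise rose by 0.84 more than Col3a1 (SE 0.18, adjusted p = 0.0139). Col4a5 rose by 0.69 more than Col4a6 (SE 0.18, adjusted p = 0.0139), which lay below the array median. Col6a1 changed by 0.60 less than Col6a3 (SE 0.21, adjusted p = 0.0139). A small difference of -0.14 (SE 0.04, exact p = 0.0159, adjusted p = 0.0247) was found between Col4a1 and Col4a2, although neither chain alone passed, and limma over the pairs did not call it (adjusted p = 0.261).

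Between types, Col1a1 rose by 3.42 more than Col4a1 (SE 0.57), by 2.54 more than Col6a1 (SE 0.22) and by 2.74 more than Col14a1 (SE 0.27), each with the smallest possible p and an adjusted p of 0.0139. The same held for Col3a1 against its chromosomal neighbour Col5a2, at 1.98 (SE 0.38). The signals of Col1a1 and Col3a1 rose by more than those of the network, type V, type VI and fibril-associated chains they were set against. These differences largely restate the large rises of Col1a1 and Col3a1, so their p-values are no separate evidence.

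The 5 pairs that did not pass were Col5a1 with Col5a2 (0.09, SE 0.26), Col4a3 with Col4a4 (-0.22, SE 0.19), Col6a1 with Col6a2 (0.16, SE 0.29), Col8a1 with Col8a2 (-0.39, SE 0.23) and Col15a1 with Col18a1 (0.33, SE 0.30). Their standard errors of 0.19 to 0.30 leave room for differences that these arrays could not resolve. Col8a1 with Col8a2 passed without Std 4 (-0.57, adjusted p = 0.0444).

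**Figure D4:**
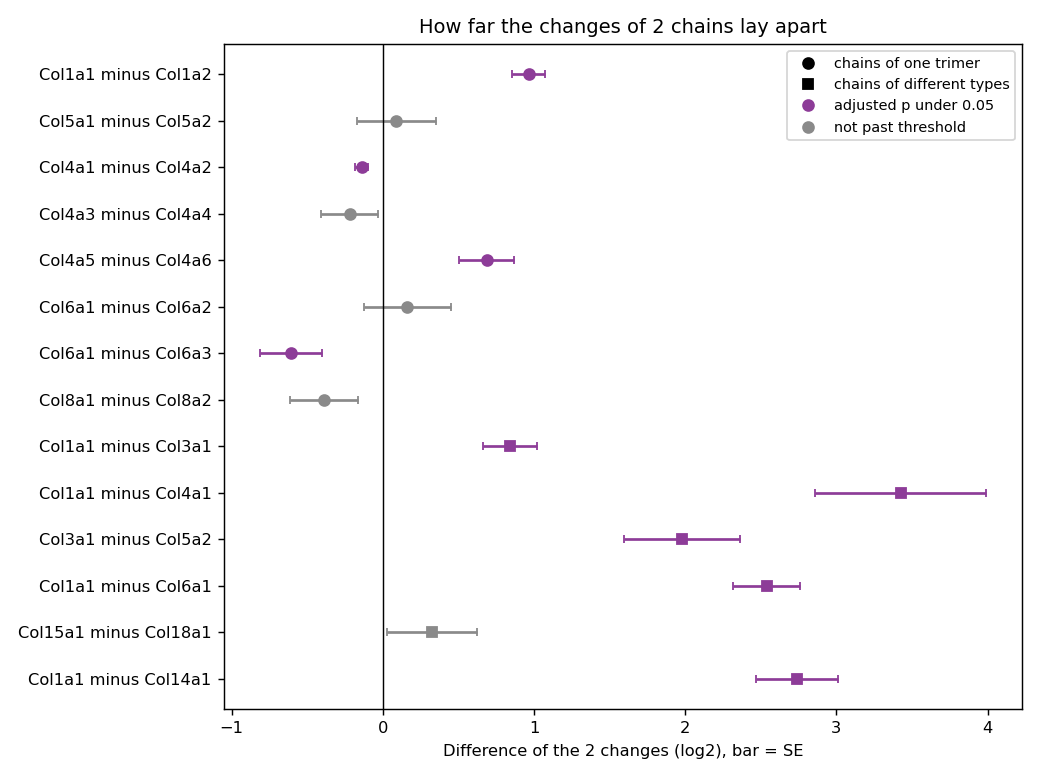
Difference between the changes of paired chains (log2, first chain minus the second) with its SE over 5 arrays per diet; circles are chains of 1 trimer, squares chains of different types, and purple marks an adjusted p under 0.05. Col1a1 minus Col4a1 lies farthest from 0 at 3.42, and Col1a1 minus Col1a2 at 0.96 has the narrowest bar of the differences above 0.9.

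Genes that fold, cross-link, bind and degrade collagen were taken from 5 lists with 65 entries, of which 63 were measured. Of these 23 rose and 13 fell, against 7.49% and 9.13% of all genes. The median change of the lists was 0.15. They did not move in 1 direction. The same shares of all genes stand beside each list below, and 1 call in a list of 10 to 12 genes is close to them.

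Enzymes that hydroxylate and fold the chains in the endoplasmic reticulum went both ways, with 3 of 18 higher and 6 lower past the threshold and a median of 0.04. P3h2, a prolyl 3-hydroxylase that acts on type IV collagen, fell by 1.66 (SE 0.26), from 7.31 to 8.04 with Std to 5.32 to 6.71 with CDAA. P4ha2, a catalytic subunit of the prolyl 4-hydroxylase that stabilises the triple helix, fell by 1.49 (SE 0.20), and Colgalt2, a collagen galactosyltransferase, by 1.34 (SE 0.23). The 3 that rose were Tmem38b, an ion channel needed for collagen assembly (0.83, SE 0.18), Plod2, a lysyl hydroxylase (0.67, SE 0.12), and Serpinh1, the collagen chaperone HSP47 (0.51, SE 0.11). Serpinh1 read 8.59 to 9.01 with CDAA and 8.13 to 8.50 with Std, without overlap.

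Of 12 genes of procollagen processing and cross-linking 3 rose and 3 fell, with a median of -0.11. The risen genes were the cross-linking oxidases Loxl1 (1.30, SE 0.23) and Lox (0.53, SE 0.12) and Bmp1 (1.23, SE 0.19), the protease that removes the C-terminal propeptide of fibrillar procollagens. Its enhancers Pcolce2 (-1.84, SE 0.26) and Pcolce (-0.61, SE 0.14) fell, as did Loxl3 (-0.78, SE 0.13). With both CDAA 1 and CDAA 3 left out Lox did not pass (0.44, adjusted p = 0.0697).

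Among 11 collagen receptors 4 rose and 2 fell. Ddr1, a receptor kinase of epithelial cells that binds collagen, read 7.84, 7.21, 8.12, 6.93 and 7.34 with CDAA and 4.65 to 5.54 with Std, a rise of 2.28 (SE 0.23). Itga2, the integrin subunit that prefers fibrillar collagen, rose by 1.70 (SE 0.15), whereas Itga1, the subunit that prefers type IV, fell by 0.73 (SE 0.19). Lair1, an inhibitory receptor of immune cells, rose by 1.19 (SE 0.31), and Mrc2, which takes up collagen for breakdown, by 0.87 (SE 0.24). Lair1 lost its call without CDAA 1, Std 1 or Std 4 (adjusted p = 0.0531 to 0.0569), and Mrc2 without CDAA 1, CDAA 3, Std 1, Std 3 or Std 4 (adjusted p = 0.0637 to 0.0709). Without both CDAA 1 and CDAA 3 the changes were 0.71 for Lair1 and 0.50 for Mrc2, neither past the threshold (adjusted p = 0.0695 and 0.141), and -0.43 for Itga1, which passed (adjusted p = 0.0448). Adgrg1, a receptor of type III collagen, fell by 0.80 (SE 0.13). Ddr2, the kinase that fibroblasts use, gave 0.64 (SE 0.30, adjusted p = 0.192), with 0.89 without CDAA 4 (adjusted p = 0.0295) and 0.16 without both CDAA 1 and CDAA 3 (adjusted p = 0.708). The cholangiocyte marker mean, 7.07 to 7.86 with CDAA and 4.34 to 5.46 with Std, and the recruited macrophage mean, 7.73 to 9.19 and 5.01 to 6.03, moved with the receptors of epithelial and immune cells, and their part in these changes was not tested.

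Of 10 genes of collagen breakdown 5 rose, 3 enzymes and the inhibitors Timp1 and Timp2, and 1 fell, with a median of 0.69. Mmp13, the main interstitial collagenase of rodents, read 6.19, 4.89, 6.84, 5.55 and 4.48 with CDAA and 3.16 to 3.33 with Std, below the array median, and rose by 2.37 (SE 0.35). Mmp2, a gelatinase of mesenchymal cells, rose by 1.93 (SE 0.27), and Ctsk, the collagen-cleaving cathepsin K, by 0.83 (SE 0.12). Timp1, with Std signals of 3.24 to 3.82 below the array median, rose by 1.63 (SE 0.13) and Timp2 by 1.04 (SE 0.21), whereas Timp3, which binds to matrix, fell by 1.03 (SE 0.14), from 11.15 to 11.44 with Std to 9.81 to 10.62 with CDAA. The neutrophil proteases Mmp8 and Mmp9 did not pass (0.02 and 0.54, SE 1.17 and 0.92), with Std 3 at 10.44 and 10.57 and the other Std arrays at 3.18 to 3.70 and 4.59 to 5.37. Without Std 3 both rose, by 1.42 (adjusted p = 0.00811) and 1.65 (adjusted p = 0.000692).

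Of 12 ligands, receptors and mediators known to drive collagen synthesis 8 rose and 1 fell, with a median of 0.58. Pdgfra, a growth factor receptor of fibroblasts, rose by 1.51 (SE 0.34) and Pdgfrb, that of stellate cells and pericytes, by 1.02 (SE 0.21). Both also belong to the stellate cell and fibroblast list. Pdgfra was highest in CDAA 3 and CDAA 1 (7.25 and 7.05) and lowest among the CDAA arrays in CDAA 4 (5.40), the order also seen for Col1a1, and its rise without CDAA 1 and CDAA 3 was 0.97 (adjusted p = 0.0408). Tgfbr1 and Tgfb3, a receptor and a ligand of the TGF-beta pathway, rose by 1.32 (SE 0.24) and 1.17 (SE 0.17). The receptor Tgfbr2 fell by 0.59 (SE 0.10), and the ligand Tgfb1 did not pass (-0.23, SE 0.11, adjusted p = 0.207).

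**Figure D5:**
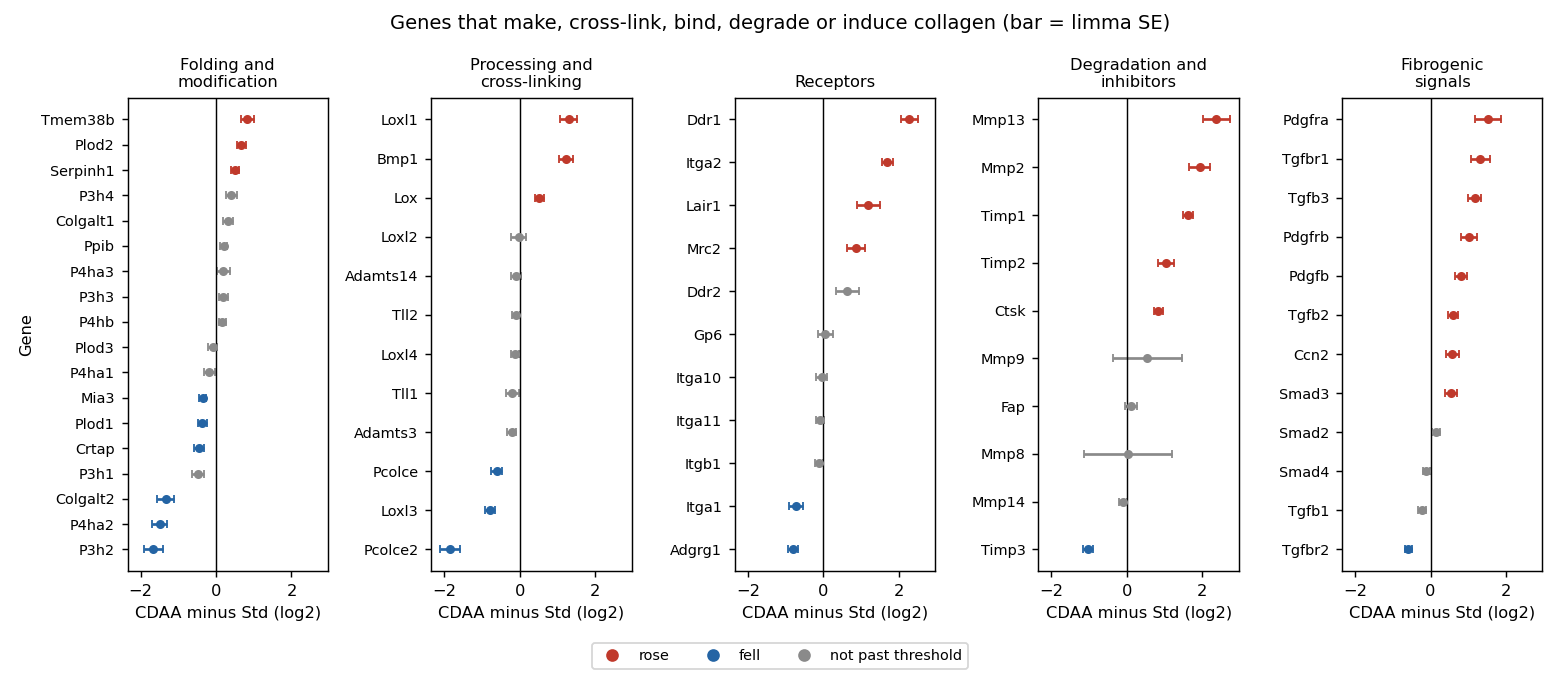
Change of the 63 measured genes that fold, process, bind, degrade or induce collagen, CDAA minus Std on the log2 scale, with limma SE bars and 1 panel per list; red rose, blue fell, grey did not pass the threshold. Mmp13 at 2.37 and Ddr1 at 2.28 lie farthest to the right and Pcolce2 at -1.84 farthest to the left, and the wide bars of Mmp8 and Mmp9 come with the high values of Std 3.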

How the data were processed

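Total RNA of 10 isolates was labelled with biotin and measured on Affymetrix arrays, per the labels. The deposited log2 signals were made by the authors with RMA, per the submitters' processing notes, which brings all arrays to 1 distribution. Version, array design and build are not given in the sources used here. Probe sets are named by NCBI Gene ID: of 25428, 24705 had a gene symbol and 723 none, and 1 probe set was kept per gene (24704 genes). CDAA and Std were compared with limma 3.58.1 in R 4.3.3, with Benjamini-Hochberg adjustment over all genes. The procedure was also run on simulated data with independent noise of equal spread in both diets. Col1a1 had SDs of 1.06 (CDAA) and 0.19 (Std), so that run does not bear on calls of such chains. The spread behind each p-value is that of pools of mice rather than of single animals, and the number of arrays limits the precision.

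Chains, classes and lists were chosen with earlier results of these data known. Of the lists up to 4 members with the largest change past the threshold were named, with Pdgfrb, Acta2, Lrat, Lox and Serpinh1. A further 12 (Plod2, Pcolce, Itga1, Adgrg1, Ddr2, Ctsk, Timp3, Mmp8, Mmp9, Tgfbr2, Ecm1 and Bgn) were chosen after their values were seen. Hgf, Dcn, Des, Hand2, Colec11, Reln, Ngfr and Tgfb1 were added later as list members that did not pass. Cd34, Fbln2, Tagln and Smtn were added later as list members that passed. None of these later additions was followed in the other fits or in the check for single arrays that stood apart. Fkbp10, Adamts2, Spp1 and Serpina1a had no named probe set here. Other fits varied normalization, filters, variance model, array weights, marker means as covariates, the replicate number as a block, and arrays left out. CDAA 1 held 24921 distinct values and each other array at most 10080, and the cause of this was not tested. CDAA 1 was among the 2 highest CDAA arrays in 8 of the 10 risen chains. Without it 7 chains rose and 4 fell.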

Additional observations from a re-analysis of the deposited data

Results flagged for a closer look

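For the named genes, without those added later, 146 groups of 5 arrays were checked for single arrays that stood apart. Of these groups 5 held an array whose gap to its nearest neighbour exceeded 0.71 of the range of the group (Dixon's value). Chance alone gives about 1 in 20. For collagen chains these were Std 1 in Col23a1, at 5.49 against 5.14 to 5.21 on the other Std arrays, and Std 3 in Col7a1, at 3.69 against 3.95 to 4.00, which is about the array median. Std 3 also stood apart in Mmp8, at 10.44 against 3.18 to 3.70, in Mmp9, at 10.57 against 4.59 to 5.37, and in Ecm1, at 9.06 against 9.50 to 9.61.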

How the results depend on the processing

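Direction and call of Col1a1, Col3a1, Col1a2, Col6a3, Col4a5, Col18a1, Col5a2, Col13a1, Col4a3 and Col4a4 were unchanged in every fit that used no marker covariate, except that Col4a4 was left out with the genes below the median of all genes. There 11 chains rose and 2 fell, of 26 tested. Leaving out each array gave 7 to 12 risen chains (fibrillar 4 to 5, network 1, other 2 to 6), 4 fallen chains, 19 to 23 risen and 10 to 14 fallen pathway genes, and 9 to 10 differing pairs, and "other" risen chains numbered 2 without CDAA 1, Std 1 or Std 3. With the pan-endothelial covariate 2 chains rose (2 fibrillar, 0 network, 0 other) and 0 fell, and 3 pathway genes rose and 1 fell. With the stellate cell and fibroblast covariate 0 chains rose (0 fibrillar, 0 network, 0 other) and 0 fell, and 2 pathway genes rose and 0 fell. With the cholangiocyte covariate 0 genes of the whole array were called (918 at an unadjusted p under 0.05), so 0 chains rose (0 fibrillar, 0 network, 0 other), 0 fell, and 0 pathway genes rose or fell. The cause of these losses was not tested.

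Estimates that turned sign had adjusted p-values above the threshold in the fit that turned them. With the pan-endothelial covariate they were Col12a1 -0.091, Col14a1 -0.34, Col15a1 -0.14, Col4a6 -0.071, Col5a1 -0.015, Col6a1 -0.30, Col9a3 -0.26, Lair1 -0.13, Lrat -0.43, Itga1 0.053, Ddr2 -0.41, Mmp8 -1.37 and Mmp9 -0.39. With the stellate cell and fibroblast covariate they were Col14a1 -0.43, Col15a1 -0.048, Col5a1 -0.17, Col5a3 -0.23, Col6a1 -0.26, Col6a2 -0.067, Col9a3 -0.060, Mrc2 -0.11, Pdgfra -0.010, Lrat -1.21 and Ddr2 -0.51. With the cholangiocyte covariate they were Col12a1 -0.12, Col13a1 0.92, Col14a1 -0.54, Col1a2 -0.15, Col23a1 -0.51, Col26a1 0.39, Col4a6 -0.069, Col6a1 -0.45, Col9a2 -0.048, Col9a3 -0.18, Loxl1 -0.15, Krt19 -0.19, Loxl3 0.028, Lair1 -0.46, Timp2 -0.37, Pdgfra -0.014, Pdgfrb -0.040, Itga1 0.17, Ddr2 -1.31, Mmp8 -7.09 and Mmp9 -4.06. With single arrays left out, Col4a1 was -0.058 to 0.095, Col5a3 -0.12 to 0.10, Col27a1 -0.15 to 0.020, Col9a3 -0.020 to 0.17 and Mmp8 -0.40 to 1.42. Without both CDAA 1 and CDAA 3 Mmp8 was -0.45. The pair Col6a1 and Col6a2 ranged from -0.036 (without CDAA 1) to 0.37 (without CDAA 5), and Col5a1 and Col5a2 from -0.098 (without Std 3) to 0.19 (without Std 2).

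Correlations of same-numbered deviations were 0.02, 0.14, 0.23, 0.25 and 0.10, not all above 0.1, so the numbers were not taken to pair the arrays, although 3 of 5 matched their own number best, a hint from the data and not from the design. With the number as a block 8 chains rose and 4 fell, Col5a1 (adjusted p = 0.0555) and Col6a2 (adjusted p = 0.0521) did not pass, and Mrc2 also did not (adjusted p = 0.0524). Under the replicate block 0 of 14 pairs passed, since exact sign flips over 5 numbers cannot give a p below 0.0625. Signals below the array median, without a detection call, limit what 15 of the chains that did not pass can show.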
